A study of Mus musculus with 4 samples.

Results

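The 10 genes described here are Srf and 9 genes of the contractile and adhesive actin cytoskeleton that are known as targets of serum response factor or as parts of the same apparatus: Acta2, Actb, Tagln, Cnn1, Myl9, Tpm1, Tpm2, Vcl and Flna. They were chosen by symbol, as the rows of a read count table that carry exactly these names, and all 10 were found among 23473 gene rows. Of these, 6 had enough counts to be tested, and Acta2, Tagln, Cnn1 and Myl9 did not. RNA-seq was run on 2 libraries labelled as MIN6 cells that stably overexpress TLX, the orphan nuclear receptor encoded by Nr2e1, and on 2 libraries labelled as wild-type control MIN6 cells. MIN6 is a mouse insulinoma line. Cells of both groups grew in DMEM at 25 mM glucose with 15% serum, and the labels name no treatment. The vector of the TLX cells, whether they are 1 clone or a pool, and whether the controls carry an empty vector remain not given in the sources used here, nor is it stated that libraries of a group came from separate cultures, so p-values measure the spread between these libraries.

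Serum response factor is a transcription factor that binds the CArG box, a short run of A and T flanked by C and G, and works with partners of 2 kinds. Myocardin-related factors, which bind actin monomers and enter the nucleus when actin polymerizes downstream of the GTPase RhoA, direct it to cytoskeletal and contractile genes. Ternary complex factors, which are phosphorylated by ERK, direct it to immediate early genes. In smooth muscle and in contractile fibroblasts the first set makes up much of the contractile machinery, whereas epithelial and endocrine cells keep mainly its cytoplasmic, non-muscle forms.

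The 4 libraries held 8136185 to 9788646 counts in gene rows. Nr2e1 was counted 338 and 281 times in the TLX libraries and 8 and 10 times in the control libraries, which goes with the labels. The cell type label was less well borne out by markers. Of 13 beta cell markers, 9 had 0 counts in all 4 libraries, among them Iapp, Nkx6-1, Slc2a2 and Chga, while Ins1 stood at 11.3 and 8.83 CPM (counts scaled to a common library size) in TLX cells and at 9.34 and 8.66 CPM in control cells. Among 12 fibroblast and mesenchymal markers, Vim reached 1860.0 and 1763 CPM in TLX cells and 1640 and 1601 CPM in control cells, while Lum was at 0 and Dcn and Thy1 were at 3 counts or fewer in each library. The cells are called below by their labels.

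The cytoplasmic and non-muscle genes of the set were expressed, and the genes best known from smooth muscle were at or near 0, in TLX and control cells alike. On a scale of CPM per kilobase of the gene row, which allows genes to be set side by side, Actb averaged 2290.4 over the 4 libraries, Flna 194, Tpm1 51.7, Vcl 21.6, Srf 14.7 and Tpm2 4.60. Tagln followed at 0.589, Acta2 at 0.0214 and Cnn1 at 0.0146, and Myl9 had no counts. Down to Tagln, no library of one gene overlapped any library of the next on this scale. Acta2, Cnn1 and Myl9 could not be ordered among themselves at this depth. Actb lay above 99.9% of all gene rows on the same scale, Flna above 98.5%, Tpm2 above 66.3% and Tagln above 53.2%.

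**Figure D1:**
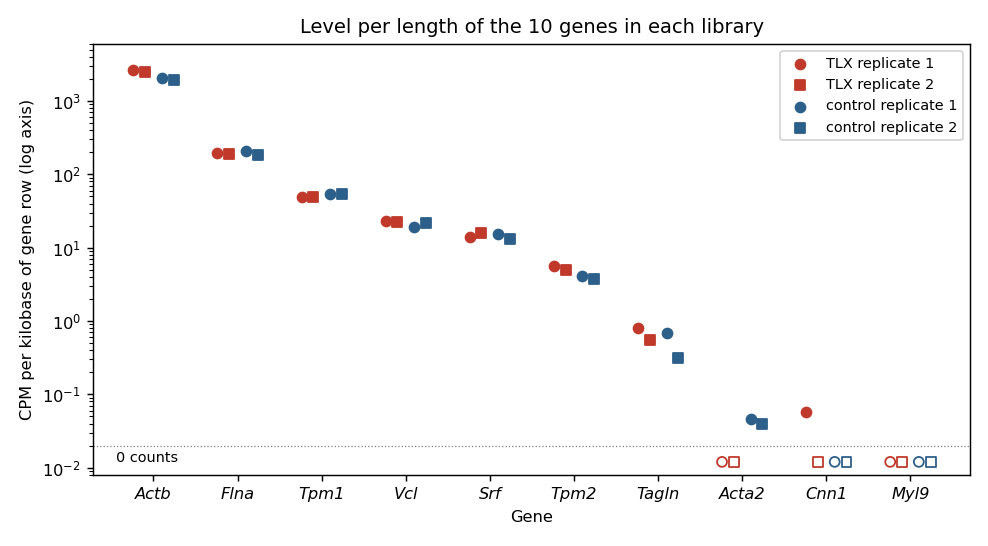
Level of each of the 10 genes in each library, as CPM per kilobase of the gene row on a log axis, with TLX libraries in red left of control libraries in blue and open symbols for 0 counts. Actb lies near 2290 and Tpm2 near 4.60, whereas Acta2, Cnn1 and Myl9 have 1 count at most in any library.

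Srf, the transcription factor itself, was present at a moderate level, and its difference did not pass the test. It was counted 495 and 518 times in the TLX libraries and 527 and 541 times in the control libraries. That corresponds to 57.2 and 65.4 CPM in TLX cells and to 63.1 and 54.5 CPM in control cells, so the groups overlapped. The log2 fold change of TLX over control was 0.06 with a standard error (SE) of 0.10 and a 95% interval of -0.14 to 0.26 (edgeR adjusted p = 0.72). Its sign turned to -0.04 without TLX replicate 2 and to -0.05 without control replicate 2.

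The partners through which serum response factor is directed to its targets were also measured. Of 8 such genes 6 were tested, and 0 were called in either direction. At an unadjusted p under 0.05 1 was higher and 0 were lower in edgeR, and 1 was higher and 0 were lower in DESeq2, where 0 passed after adjustment. Elk3 was that gene in both. Mkl1, which encodes the actin-sensing coactivator MRTF-A, stood at 90.9 and 90.1 CPM in TLX cells and at 105 and 96.1 CPM in control cells, with a log2 fold change of -0.15 (SE 0.08, edgeR adjusted p = 0.234). Mkl2, which encodes MRTF-B, had 0.08 (SE 0.10, edgeR adjusted p = 0.665). Myocd, which encodes myocardin, the coactivator of cardiac and smooth muscle, had 0 counts in all 4 libraries. Elk3, a ternary complex factor gene, was at 113 and 125 CPM in TLX cells and 98.7 and 106 CPM in control cells (log2 fold change 0.22, edgeR adjusted p = 0.0763, and 0.0187 without control replicate 2).

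Sequence upstream of these genes was read from RefSeq windows of build GRCm38.p6 that run from 250 bases before to 50 bases after an annotated start. Of the 10 genes 8 matched a window. Actb and Tagln had none, so neither was searched. The counts were aligned to another build, and only the letters are used here. The CArG box was searched only in its strict form CCWWWWWWGG, where W is A or T. This form reads the same class of letters on both strands. It was found in the windows of Srf, Vcl and Myl9, which is 3 of 8 genes, against 1.63% of all 32851 windows. Stretches that depart from this form by a letter were not counted, and the window of Acta2 holds such stretches. The TLX half-site AAGTCA, searched on both strands, was in 0 of the 8, against 15.1% of all windows. At that share, 8 windows are too few to show an absence. The windows below are those of the 3 genes with a CArG box, in capitals, of Tpm2 as a gene called higher, and of Actg1, the called relative of Actb, which is no member and whose window also holds a CArG box. They lie on the minus strand at chr17:46556113-46556412 for Srf, chr4:43523505-43523804 for Tpm2 and chr11:120348446-120348745 for Actg1, and on the plus strand at chr14:20929148-20929447 for Vcl and chr2:156775214-156775513 for Myl9.
Srf: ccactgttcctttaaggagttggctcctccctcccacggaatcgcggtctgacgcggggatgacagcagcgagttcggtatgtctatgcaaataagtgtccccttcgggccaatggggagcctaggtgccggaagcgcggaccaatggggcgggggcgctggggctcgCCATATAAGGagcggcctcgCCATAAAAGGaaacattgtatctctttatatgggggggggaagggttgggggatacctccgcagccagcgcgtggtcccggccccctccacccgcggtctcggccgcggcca
Vcl: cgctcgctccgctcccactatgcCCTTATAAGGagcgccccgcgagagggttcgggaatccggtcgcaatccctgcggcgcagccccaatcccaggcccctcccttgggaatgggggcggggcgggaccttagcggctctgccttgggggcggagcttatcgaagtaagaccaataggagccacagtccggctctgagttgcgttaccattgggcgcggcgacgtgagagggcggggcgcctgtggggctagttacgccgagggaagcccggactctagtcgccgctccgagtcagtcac
Myl9: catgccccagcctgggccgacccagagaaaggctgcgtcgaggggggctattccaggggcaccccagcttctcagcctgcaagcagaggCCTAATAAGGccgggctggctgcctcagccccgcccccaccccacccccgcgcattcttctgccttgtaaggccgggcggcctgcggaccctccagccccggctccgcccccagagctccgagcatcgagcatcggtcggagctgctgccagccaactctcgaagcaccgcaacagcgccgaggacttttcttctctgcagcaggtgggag
Tpm2: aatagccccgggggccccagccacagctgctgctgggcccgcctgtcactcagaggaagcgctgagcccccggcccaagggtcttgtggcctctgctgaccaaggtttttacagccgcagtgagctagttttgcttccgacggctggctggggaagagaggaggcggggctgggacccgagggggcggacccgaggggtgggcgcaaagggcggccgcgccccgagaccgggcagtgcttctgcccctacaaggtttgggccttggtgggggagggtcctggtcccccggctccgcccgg
Actg1: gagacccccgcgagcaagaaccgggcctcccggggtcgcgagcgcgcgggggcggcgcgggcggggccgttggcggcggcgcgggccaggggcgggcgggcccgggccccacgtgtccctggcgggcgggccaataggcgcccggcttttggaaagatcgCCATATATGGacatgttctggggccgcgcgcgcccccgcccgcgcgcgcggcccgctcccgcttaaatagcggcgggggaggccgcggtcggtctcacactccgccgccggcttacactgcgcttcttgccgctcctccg
The first bases of the boxes stood at -82 and -62 from the annotated start in Srf, -227 in Vcl, -161 in Myl9 and -90 in Actg1. A match describes letters and not a bound site. Among the genes shown with such a box, Actg1 was called higher, Srf and Vcl were not called, and Myl9 had no counts. Of 15 close relatives 13 matched a window. Of these, 5 held a CArG box, and 1, Cnn2, held AAGTCA. Besides Actg1 the relatives with a CArG box were Acta1, Actc1, Cnn2 and Myl6, whose windows are not shown. Cnn2 and Myl6 were not called (edgeR adjusted p of 0.619 and 0.953), and Acta1 and Actc1 had too few counts to be tested.

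Actb and Tpm2 were higher in TLX cells, and no gene of the set was called lower. By edgeR's quasi-likelihood test at an adjusted p under 0.05, 2 of the 6 tested genes were called higher, against 7.79% of 11024 genes tested, and 0 were called lower, against 9.04% (16.8% in either direction). The count of 2 was 0 without TLX replicate 1, 1 without control replicate 2, where the gene called was Vcl, and 1 in DESeq2, where it was Actb. At an unadjusted p under 0.05, 2 were higher and 0 lower in edgeR, and DESeq2 called 0 lower. The median log2 fold change of the 6 was 0.12, beside 0.00057 over all genes tested. Groups did not overlap for 3 of the 6 with TLX above (Actb, Tpm2 and Vcl) and for 1 with TLX below (Tpm1), beside 28.5% above, 28.6% below and 57.1% in either direction over all genes tested.

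Actb encodes beta-actin, the main cytoplasmic actin. It was counted 42970 and 37487 times in the TLX libraries and 32727 and 36618 times in the control libraries. Its level was 4969 and 4729.7 CPM in TLX cells and 3920.3 and 3688 CPM in control cells, so both TLX libraries lay above both control libraries. The change was 1.27-fold (log2 fold change 0.35, SE 0.10, 95% interval 0.15 to 0.55, edgeR adjusted p = 0.0135). It passed in DESeq2 (adjusted p = 0.000138). In edgeR it did not pass without TLX replicate 1 (adjusted p = 0.109) or without control replicate 2 (0.103), with values of 0.31 in each case; over all alternatives except the replicate block the edgeR, DESeq2 and limma-voom adjusted p ranged from 6.93e-05 to 0.109.

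The cytoplasmic gamma-actin gene Actg1 moved the same way. It stood at 928 and 872 CPM in TLX cells and at 749 and 729.8 CPM in control cells, a log2 fold change of 0.28 (SE 0.08, edgeR adjusted p = 0.0156). Without TLX replicate 1 its edgeR adjusted p was 0.265 and without TLX replicate 2 it was 0.0854. Actb and Actg1 share nearly identical coding sequence and Actb has processed copies in the genome, and how reads with several matches were assigned was not stated, so the split between their rows is uncertain. Summed over 6 actin genes, the level per length was 3120.5 and 2964 CPM per kilobase in TLX cells and 2471 and 2338 CPM per kilobase in control cells. Actb took 84.3% and 84.5% of that sum in TLX cells and 84.0% and 83.5% in control cells, so its share was close to constant while the sum was higher.

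Acta2, the smooth muscle alpha-actin gene and a standard marker of smooth muscle and myofibroblasts, had 0 and 0 counts in the TLX libraries and 1 and 1 in the control libraries. A count of 0 allows up to 0.347 and 0.379 CPM in the TLX libraries (3 counts each, counting error only). All 4 libraries were therefore at or under what 3 counts would give, and no fold change is stated. The striated and enteric actin genes Acta1, Actc1 and Actg2 had at most 2 counts in any library. Few if any counts thus fell on these muscle rows beside the abundant Actb and Actg1.

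Tpm2 encodes beta-tropomyosin, one of the coiled-coil proteins that lie along the actin filament. It was counted 164 and 129 times in the TLX libraries and 114 and 122 times in the control libraries. Its level was 19.0 and 16.3 CPM in TLX cells and 13.7 and 12.3 CPM in control cells, with no overlap. The change was 1.37-fold (log2 fold change 0.45, SE 0.14, 95% interval 0.16 to 0.74, edgeR adjusted p = 0.03). It did not pass in DESeq2 (adjusted p = 0.255), nor in edgeR without TLX replicate 1 (value 0.33, adjusted p = 0.278) or without control replicate 2 (0.37, 0.126), and over all alternatives except the replicate block the edgeR, DESeq2 and limma-voom adjusted p ranged from 0.0149 to 0.278.

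Tpm1, the alpha-tropomyosin gene, went the other way without passing. It had 162 and 161.5 CPM in TLX cells and 177 and 178 CPM in control cells, and both TLX libraries lay below both control libraries. The log2 fold change was -0.13 with a 95% interval of -0.29 to 0.02 (SE 0.08, edgeR adjusted p = 0.24). The relatives Tpm3 and Tpm4 were the main tropomyosin rows and had log2 fold changes of 0.03 and -0.01 (edgeR adjusted p of 0.841 and 0.936). Per length, Tpm3 took 48.6% and 48.3% of the summed tropomyosin level in TLX cells and 48.6% and 45.9% in control cells. Tpm4 took 34.3% and 34.9% in TLX cells and 33.9% and 35.7% in control cells. Tpm1 made up 15.3% and 15.3% in TLX cells and 16.3% and 17.2% in control cells, and Tpm2 1.77% and 1.52% in TLX cells and 1.24% and 1.17% in control cells. The gene called higher was thus the least abundant of the 4, and the summed level was 322.2 and 322.4 CPM per kilobase in TLX cells and 331 and 316 CPM per kilobase in control cells.

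Vcl encodes vinculin, which ties integrin and cadherin adhesions to actin filaments. It was counted 1040 and 941 times in the TLX libraries and 828 and 1122 times in the control libraries, or 120.3 and 119 CPM in TLX cells and 99.2 and 113 CPM in control cells. The TLX libraries lay above both controls, by a small margin over control replicate 2. The log2 fold change was 0.17 (SE 0.08, 95% interval -0.0032 to 0.34, edgeR adjusted p = 0.175). It passed when control replicate 2 was left out (0.27, edgeR adjusted p = 0.0187) and not under the other settings without a replicate block. Ctnna1, the alpha-catenin gene and its closest relative among those listed, had 0.11 (edgeR adjusted p = 0.341).

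Flna encodes filamin A, which crosslinks actin filaments and anchors them to membrane receptors. It was among the most abundant rows, with 14127 and 12724 counts in the TLX libraries and 14367 and 15149 in the control libraries. Its level was 1634 and 1605 CPM in TLX cells and 1721 and 1525.5 CPM in control cells, and the control libraries enclosed the TLX ones. The log2 fold change was -0.0031, with a 95% interval of -0.18 to 0.18 (SE 0.09, edgeR adjusted p = 0.986), an interval that holds changes in either direction. Flnc, which encodes the filamin of muscle, was at 863 and 887 CPM in TLX cells and 1080.5 and 927 CPM in control cells. Per length it averaged 102 CPM per kilobase over the 4 libraries, above 97.1% of all gene rows, beside 194 for Flna. Flnc had a log2 fold change of -0.20 and did not pass (edgeR adjusted p = 0.122). Without control replicate 2 it had -0.31 (edgeR adjusted p = 0.00811).

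**Figure D2:**
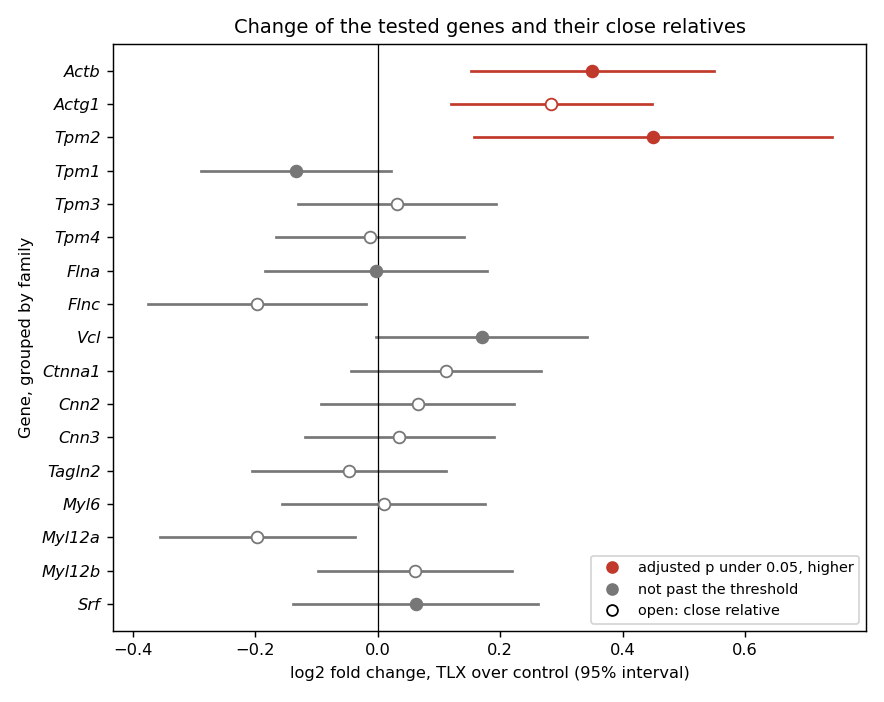
log2 fold change of TLX over control with its 95% interval for the 6 tested genes of the set (filled) and 11 tested close relatives (open), grouped by family. Actb at 0.35, Tpm2 at 0.45 and Actg1 at 0.28 are the 3 past the threshold after adjustment over all genes tested.

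The remaining 3 genes of the set were read by their low counts. Tagln encodes transgelin (SM22), an actin-binding protein of smooth muscle and one of the best known CArG box genes. It was counted 11 and 7 times in the TLX libraries and 9 and 5 times in the control libraries, or 1.27 and 0.883 CPM in TLX cells and 1.08 and 0.504 CPM in control cells. The exact 95% Poisson intervals ran from 0.355 to 2.28 CPM across the TLX libraries and from 0.163 to 2.05 CPM across the control libraries, so no difference was detectable at this depth. In a fit without a filter on low counts its edgeR adjusted p was 0.702. Cnn1, which encodes the smooth muscle calponin, had 1 and 0 counts in the TLX libraries and 0 and 0 in the control libraries. Myl9, which encodes a regulatory light chain of myosin II, had 0 counts in all 4 libraries, which allows up to 0.347 and 0.379 CPM in the TLX libraries and 0.359 and 0.302 CPM in the control libraries.

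Each of these families was nonetheless present through its non-muscle relatives. Tagln2 stood at 191 and 175 CPM in TLX cells and at 191 and 187.5 CPM in control cells, and Tagln took 0.577% and 0.437% of the summed transgelin level per length in TLX cells and 0.489% and 0.233% in control cells. Cnn3 stood at 287 and 290.3 CPM in TLX cells and at 287 and 276 CPM in control cells, with Cnn2 at 169 and 164 CPM in TLX cells and at 156 and 162 CPM in control cells. Among the regulatory light chain genes Myl9, Myl12a and Myl12b, all counts fell on Myl12a and Myl12b. Myl12a was at 545 and 518 CPM in TLX cells and 620.5 and 598 CPM in control cells. Its log2 fold change of -0.20 did not pass (edgeR adjusted p = 0.084, and 0.0459 without control replicate 2). Of 11 relatives tested, Actg1 alone was called in the fit on all 4 libraries, 10 were not called, and the median log2 fold change of the 11 was 0.03. In all 9.09% of the 11 were called, beside 16.8% of all genes tested in either direction.

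**Figure D3:**
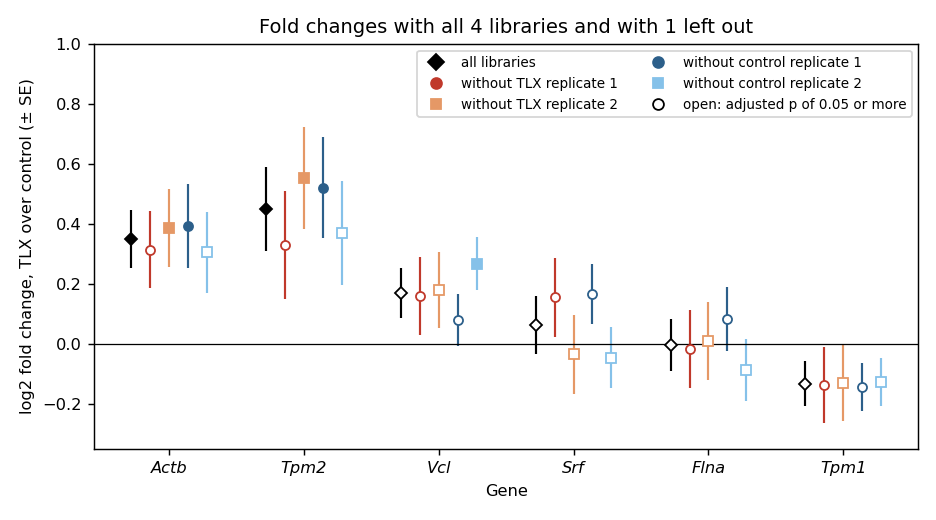
log2 fold change of TLX over control with its SE for the 6 tested genes, with all 4 libraries (diamonds) and with 1 library left out. Filled symbols pass at an adjusted p under 0.05. Actb and Tpm2 stay above 0 in every fit but are open without TLX replicate 1 and without control replicate 2, Vcl is filled without control replicate 2, and Srf and Flna cross 0.

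Other targets of serum response factor and its actin-sensing partners were called in both directions. Of 30 such genes 22 were tested, of which 3 were called higher, 6 lower and 13 in neither direction. Their median log2 fold change was -0.04, and 40.9% were called, against 16.8% of all genes tested in either direction. Without TLX replicate 1 or TLX replicate 2 the 3 higher calls were 1. The list includes genes that also respond to other pathways, and it was chosen with earlier results of these libraries known.

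The genes called lower included Ankrd1, a nuclear ankyrin repeat protein gene. It was at 65.0 and 72.7 CPM in TLX cells and 97.5 and 123 CPM in control cells (log2 fold change -0.69, SE 0.10, edgeR adjusted p = 3.61e-05). Cyr61, the gene of a secreted matricellular protein, was at 174 and 183 CPM in TLX cells and 249 and 255 CPM in control cells (log2 fold change -0.50, edgeR adjusted p = 5.17e-05). Both genes are targets of the coactivator YAP as well. Ctgf, of the same list, was not called (log2 fold change -0.03, edgeR adjusted p = 0.907). Fhl2 and Pdlim7, which encode LIM domain proteins of the actin cytoskeleton, had log2 fold changes of -0.51 and -0.42, Tgfb1i1, the gene of the focal adhesion protein Hic-5, had -0.42, and Csrp1 had -0.24 (edgeR adjusted p of 0.000148, 0.00134, 0.0244 and 0.0417). Ankrd1, Cyr61, Fhl2 and Pdlim7 kept their direction and their call under all 12 alternatives without a replicate block. Tgfb1i1 did not pass without TLX replicate 1, TLX replicate 2 or control replicate 1 (edgeR adjusted p of 0.0717, 0.12 and 0.101), nor Csrp1 without TLX replicate 1 or TLX replicate 2 (0.113 and 0.491), and neither passed in DESeq2 (adjusted p of 0.214 and 0.162).

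The genes called higher were Actg1, described above, Actn1 and Mylk. Actn1, which encodes the actin crosslinker alpha-actinin 1, was at 326 and 322 CPM in TLX cells and 266 and 258 CPM in control cells (log2 fold change 0.31, edgeR adjusted p = 0.00578, but 0.121 without TLX replicate 1 and 0.0945 without TLX replicate 2). Mylk, the gene of the kinase that phosphorylates the myosin light chain, was at 22.8 and 22.7 CPM in TLX cells and 14.1 and 15.3 CPM in control cells (log2 fold change 0.62, edgeR adjusted p = 0.00128). Mylk passed under all 12 alternatives. Only some smooth muscle genes of the same list were about as low as Acta2, with Myh11, Lmod1, Synpo2 and Actg2 at 2 counts or fewer in each library. Smtn stood at 109 and 110.4 CPM in TLX cells and at 114 and 97.1 CPM in control cells. Des stood at 8.44 and 9.84 CPM in TLX cells and at 11.9 and 10.2 CPM in control cells.

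Among genes listed as targets reached through ternary complex factors, 5 of 9 tested were called lower. Of 10 immediate early genes listed 9 were tested and 0 were called higher, so 55.6% were called, all of them lower, against 9.04% of all genes tested that were called lower. The median log2 fold change was -0.49, and 9 of 9 values were negative. This list, like those below, was chosen with earlier results of these libraries known. At an unadjusted p under 0.05 0 were higher in edgeR, and 0 were called higher in DESeq2. Egr1, a zinc finger factor gene and a standard readout of this arm, was at 186 and 191 CPM in TLX cells and 334 and 356 CPM in control cells (log2 fold change -0.87, edgeR adjusted p = 2.39e-08). Junb, Ier2, Zfp36 and Nr4a1 had -0.49, -0.42, -0.57 and -0.39. Ier2 did not pass without TLX replicate 2 (edgeR adjusted p = 0.0583) nor Nr4a1 without TLX replicate 1 (0.269) or in DESeq2 (0.172). Fos, Egr2, Fosb and Mcl1 did not pass.

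**Figure D4:**
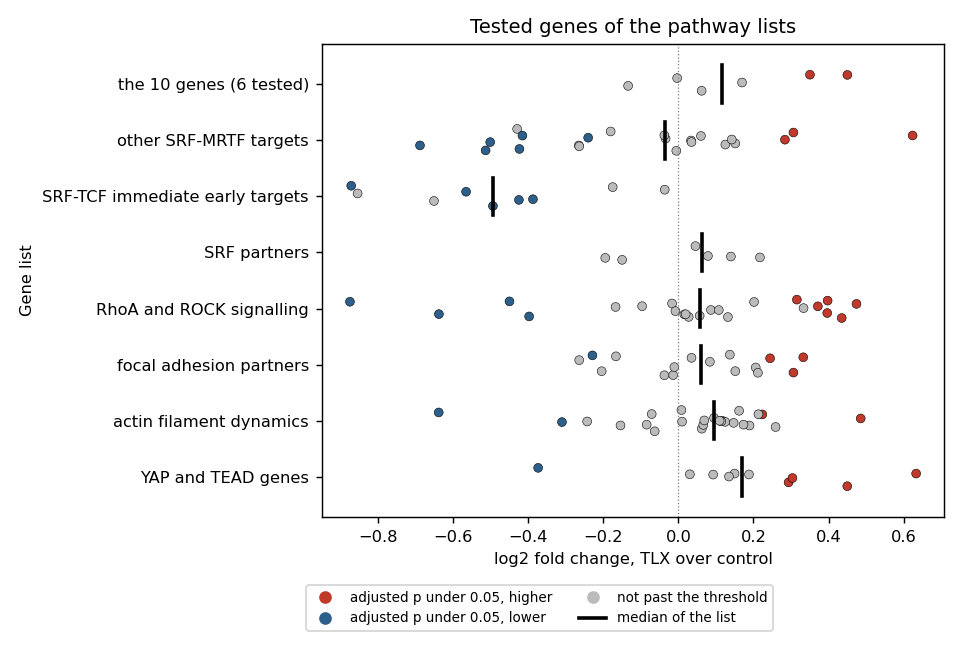
log2 fold change of TLX over control for each tested gene of the set and of 7 lists around it, with called genes in red (higher) and blue (lower) and a black bar at each median. The 6 genes of the set have a median of 0.12, that of the immediate early targets is -0.49, and the list of other actin-linked targets holds 3 higher and 6 lower calls.

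Upstream of these factors, genes of RhoA and ROCK signalling were called in both directions. Of 23 tested, 6 were called higher and 4 lower, with a median log2 fold change of 0.06. In all 43.5% were called, beside 16.8% of all genes tested in either direction. The higher calls were 2 without TLX replicate 2 and 2 in DESeq2. Rhob, a stress-responsive GTPase gene related to Rhoa, was at 91.7 and 88.1 CPM in TLX cells and 164 and 166 CPM in control cells (log2 fold change -0.87, edgeR adjusted p = 3.79e-08). Rhoc had -0.45, the atypical GTPase gene Rnd3 -0.64 and Arhgef2, an activator of RhoA, -0.40 (edgeR adjusted p of 0.000177, 0.00101 and 0.000604). Limk1, the gene of a kinase that inactivates cofilin, rose by 0.47 (edgeR adjusted p = 0.00043), and Racgap1, which works in cytokinesis, by 0.37 (0.00144, and 0.0667 without TLX replicate 2). Rhoa itself stood at 343 and 334 CPM in TLX cells and at 356 and 325 CPM in control cells and was not called (log2 fold change -0.0078, edgeR adjusted p = 0.959).

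Genes that work beside vinculin and actin were called in both directions. Of 16 focal adhesion genes 3 were called higher and 1 lower, 25.0% in all beside 16.8% of all genes tested. The 3 higher calls were 0 without TLX replicate 1, 1 without TLX replicate 2 and 5 without control replicate 2, and the 1 lower call was 0 to 2 when a library was left out. Actn4, which encodes alpha-actinin 4, was at 910.2 and 872 CPM in TLX cells and 740.4 and 675.5 CPM in control cells (log2 fold change 0.33, edgeR adjusted p = 0.006, and 0.121 without TLX replicate 1). Pxn was the 1 lower call (log2 fold change -0.23, edgeR adjusted p = 0.0391) and did not pass in DESeq2 (adjusted p = 0.13). Of the talin genes, Tln2 was called higher (log2 fold change 0.24, edgeR adjusted p = 0.0493) and Tln1 was not called (0.04, edgeR adjusted p = 0.823). Tln2 did not pass in DESeq2 (adjusted p = 0.223) or when TLX replicate 1, TLX replicate 2 or control replicate 1 was left out (edgeR adjusted p of 0.246, 0.274 and 0.125). Of 25 genes of actin filament dynamics 2 were called higher and 2 lower, 16.0% in all, and the counts ranged over 1 to 4 and 0 to 1 when a library was left out. Pfn2, a profilin gene, rose by 0.49 (edgeR adjusted p = 0.000499) and passed under all 12 alternatives. The lower calls of actin filament dynamics were Enah and Cfl2, with log2 fold changes of -0.64 and -0.31 (edgeR adjusted p of 0.0115 and 0.0318). Neither passed in DESeq2 (adjusted p of 0.159 and 0.228). Of 10 genes of the YAP and TEAD pathway, whose targets overlap with those of serum response factor, 4 were called higher and 1 lower. In all 50% of these 10 were called, beside 16.8% of all genes tested. Yap1 was among the higher calls (log2 fold change 0.30, edgeR adjusted p = 0.0111) but did not pass in DESeq2 (adjusted p = 0.0553). The higher calls were 2 without TLX replicate 1 and 2 without TLX replicate 2, and the lower call was 0 without TLX replicate 1. Tead3 and Lats2 had 0.63 and 0.45 and passed throughout, and Wwtr1, the TAZ gene, had -0.37 (edgeR adjusted p of 5.76e-05, 0.000295 and 0.00112; 0.0615 for Wwtr1 without TLX replicate 1).

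Markers of other cell types were set beside these values. The summed level of 12 fibroblast and mesenchymal markers was 8267 to 8604 CPM in TLX cells and 7584 to 7991.5 CPM in control cells. Its largest part was Col1a2, at 3884 and 3834.5 CPM in TLX cells and 3290.6 and 3084.4 CPM in control cells. Of 8 tested, 2 were called higher (Sparc and Col1a2) and 2 lower (Fn1 and Pdgfrb), with a median log2 fold change of -0.03. In all 50% of the 8 were called, beside 16.8% of all genes tested. Col1a2 did not pass when any 1 library was left out (edgeR adjusted p from 0.0707 to 0.22), nor Pdgfrb without control replicate 1 (0.071). The summed level of 8 smooth muscle markers was 141 to 143 CPM in TLX cells and 123 to 140.4 CPM in control cells, and Myocd was at 0. Endothelial markers summed to 2.02 to 3.24 CPM in TLX cells and 2.04 to 2.42 CPM in control cells, with Emcn at 0 and Pecam1 at 1 count in 1 library. Leukocyte markers summed to 86.5 to 87.8 CPM in TLX cells and 103 to 104 CPM in control cells, carried by Cd68 and Cd14, with Emr1 at 0. Duct markers summed to 14.9 to 15.6 CPM in TLX cells and 27.7 to 30.2 CPM in control cells, with Krt19 and Epcam at 0. Within that list Sox9 was called lower (log2 fold change -1.37, edgeR adjusted p = 1.57e-07) and Krt7 higher (1.77, edgeR adjusted p = 0.00151), while Muc1 had 0.72 and did not pass. Acinar markers summed to 1.64 to 2.31 CPM in TLX cells and 0.906 to 1.80 CPM in control cells, with 4 of 5 at 0. The part of these markers in the changes of Actb and Tpm2 was not tested, and fewer cells of a type cannot be told apart from less RNA per cell in bulk samples.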

How the data were processed

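RNA-seq covered 2 TLX and 2 control libraries. TopHat2 2.0.13 and build mm9 are named, per the submitters' processing notes. Counting program, annotation, strand use and assignment of reads with several matches remain not given in the sources used here. A table of raw counts per feature was deposited, whole numbers without normalization, with a length for each row. Of its 56826 rows, 33353 name cDNA clones. These were left out, because some repeat counts of genes, though none repeated the 4 counts of any of the 6 tested genes.

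After filterByExpr (minimum count 10) and TMM scaling, TLX was tested against control in edgeR by the quasi-likelihood F-test. P-values were adjusted by Benjamini-Hochberg over all 11024 genes that remained, with a threshold of 0.05. Genes varied between replicates by a common biological coefficient of 5.24%. CPM uses TMM-scaled library sizes, and CPM per kilobase divides it by the deposited length. SE is the log2 fold change over the square root of F, and 95% intervals use the moderated degrees of freedom. With 2 libraries a group no permutation test could pass 0.05. The code was tested on simulated counts. R 4.3.3 was used with edgeR 4.0.16, DESeq2 1.42.0 and limma 3.58.1.

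Libraries of a group were compared by a chi-square per gene, for genes of 50 counts or more. Scaled by gene-row totals, its median was 0.924 between the TLX libraries and 1.13 between the control libraries, beside 0.455 for sampling noise. They were kept as separate samples. A median above noise cannot show separate cultures, since a difference in composition between libraries raises it too. The Rn45s row took 12.2% and 16.7% of gene-row counts in the TLX libraries and 14.2% and 14.3% in the control libraries.

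The genes and lists were chosen with earlier results of these data known. Named were the 10 genes, Nr2e1, close relatives, partners of SRF, up to 6 genes of smallest p from each other list, and markers. Rhoa, Tln1, Tln2, Tgfb1i1, Csrp1 and Ctgf were picked after their values were seen. Lists share some genes, and 2 genes of the lists are not reported here. The alternatives were median-of-ratios size factors, no normalization factors, no filter, a mean of at least 10 CPM, the DESeq2 Wald test, limma-voom, all rows, no Rn45s or Lars2, a replicate block and leaving out each library.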

Additional observations from a re-analysis of the deposited data

How the results depend on the processing

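The median log2 fold change of all genes stayed within -0.0079 and 0.0073 under every alternative. With median-of-ratios size factors and with no normalization factors, Actb, Tpm2, Vcl and Tpm1 each kept their direction. With DESeq2's Wald test 355 genes were called higher and 484 lower, against 859 and 997, and 1 of the 10 genes was called higher, since Tpm2 (0.45, adjusted p = 0.255) did not pass. Leaving out 1 library gave 388 to 993 genes called higher, 585 to 1060 lower, and 0 to 2 of the 10 genes higher; fewer samples were then fitted. In these fits Actb ranged from 0.31 to 0.39, Tpm2 from 0.33 to 0.55, Vcl from 0.079 to 0.27, Srf from -0.046 to 0.17 and Flna from -0.089 to 0.084, and among other genes that turned sign Mkl2 ranged from -0.084 to 0.23, Elk4 from -0.041 to 0.13, Tpm3 from -0.045 to 0.11, Tagln2 from -0.11 to 0.013, Rhoa from -0.072 to 0.055, Tln1 from -0.018 to 0.086 and Myl6 from -0.076 to 0.089. Myl6 had -0.0024 under the filter of 10 CPM. The cause of these shifts was not tested.

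The labels give both groups the numbers 1 and 2 but no shared source. Deviations of same-numbered libraries had a correlation of 0.108 over 11024 genes, and with a replicate block 1495 genes were called higher and 1487 lower; Vcl (0.17, edgeR adjusted p = 0.0413) then passed, as did Elk3, Myl12a, Flnc, Fos, Zyx, Tns1, Pfn1, Tmsb4x and Amotl2 (edgeR adjusted p from 6.57e-05 to 0.0398). Depth limits Acta2, Tagln, Cnn1 and Myl9, for which small changes could not have been seen.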
